A study of Nasonia vitripennis with 140 samples.

Results

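GstT2 is annotated as a glutathione transferase of the theta class in the parasitoid wasp Nasonia vitripennis. It is 1 of 15471 genes listed in the counts of this RNA-seq series. It was chosen by its counts across the 28 groups described here, so its levels and differences are given as a description without a test. The 16 other genes whose symbol starts with Gst were taken by name as a reference. RefSeq lists GstT2 for the assembly Nvit_psr_1.1 as gene 100118227, a protein-coding gene on chromosome 2. No coordinates are printed, because the sources used here do not name the build used for counting.

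Glutathione transferases join the tripeptide glutathione to reactive, electrophilic compounds, which makes these compounds more soluble and easier to clear. Animals carry several soluble classes, named by Greek letters, and a separate family of membrane-bound microsomal enzymes. In insects the family is best known for the handling of insecticides, plant toxins and products of oxidative damage. The theta class occurs widely across animals. The sources used here annotate no substrate for GstT2 in Nasonia.

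In Nasonia, unfertilised eggs give haploid males and fertilised eggs give diploid females. Wasps of the AsymCX strain were raised on Calliphora hosts, and both sexes received double-stranded RNA (dsRNA, 4 µg/µl) directed at doublesex (dsx) or, as the control, at green fluorescent protein (GFP). The gene dsx encodes a transcription factor at the lower end of the insect sex-determination cascade. Every group carried an injection, in the sampled wasps themselves or, for embryos, in their mothers, and no uninjected wasps were analysed here. The 28 groups cover both sexes, both dsRNAs and 7 stages or body parts, with 5 replicates each, 140 libraries in total. Larvae injected on day 4 or 6 were collected on day 7 or 9, and pupae injected on day 8 were collected on day 11. Each larval or pupal sample pooled 3 individuals. Heads, thoraces and abdomens came from young adults injected as pupae on day 8, and the labels give 7 adults for these parts without saying whether that is the number in each sample. Embryos of day 1 were pooled by 100 and came from mothers injected as pupae on day 8. Male embryo samples were laid by virgin mothers. Those of mated mothers were 90 to 95% female, so the female embryo samples also held some males. The labels do not say whether replicates came from separate cultures, so p-values measure the spread between these samples, which may be partly technical. The question of the series was what dsx knockdown does to expression that differs between the sexes.

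Total counts lay between 59.2 M and 113 M per library (M, 1e+06 counts), with a median of 74.8 M. Replicates differed by more than sampling noise in all 280 pairs, the lowest chi-square per gene being 19.3. The eye opsin Lop1 stood at 2693 to 7187 CPM (counts scaled to 1e+06 per library) in the head libraries and at no more than 10.6 CPM elsewhere outside pupae. Tra, the sex-determination gene transformer, separated the sexes at 7 of 7 stages. The targeted gene Dsx did not follow its label. A gene is called where edgeR's quasi-likelihood test gives a Benjamini-Hochberg adjusted p below 0.05 over all tested genes of a comparison. The Dsx log2 fold change between dsx-labelled and GFP groups lay between -0.12 and 1.32 in males. It was called higher there at 4 stages, which were day 7, day 9, pupae and abdomens (0.27). In male heads it was 0.06 and in male thoraces -0.11, neither called. In females it lay between -0.13 and 0.30, called at 0 stages. Dsx was called lower at 0 stages in either sex. The groups are therefore called dsx-labelled, and the label alone gives every direction reported for them.

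GstT2 was highest in adult GFP males, in every body part, and lowest in embryos. Levels are CPM scaled with TMM factors over all 140 libraries, which compare GstT2 with itself across samples. The abdomens of GFP males stood at 1465 ± 216 CPM (SD, n = 5), their heads at 689 ± 157 and their thoraces at 588 ± 175. The lowest mean was 0.855 CPM in dsx-labelled female embryos, 1713-fold below the highest. In bulk samples, fewer cells of a type and less RNA per cell cannot be told apart, and this applies to each level that follows.

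**Figure D1:**
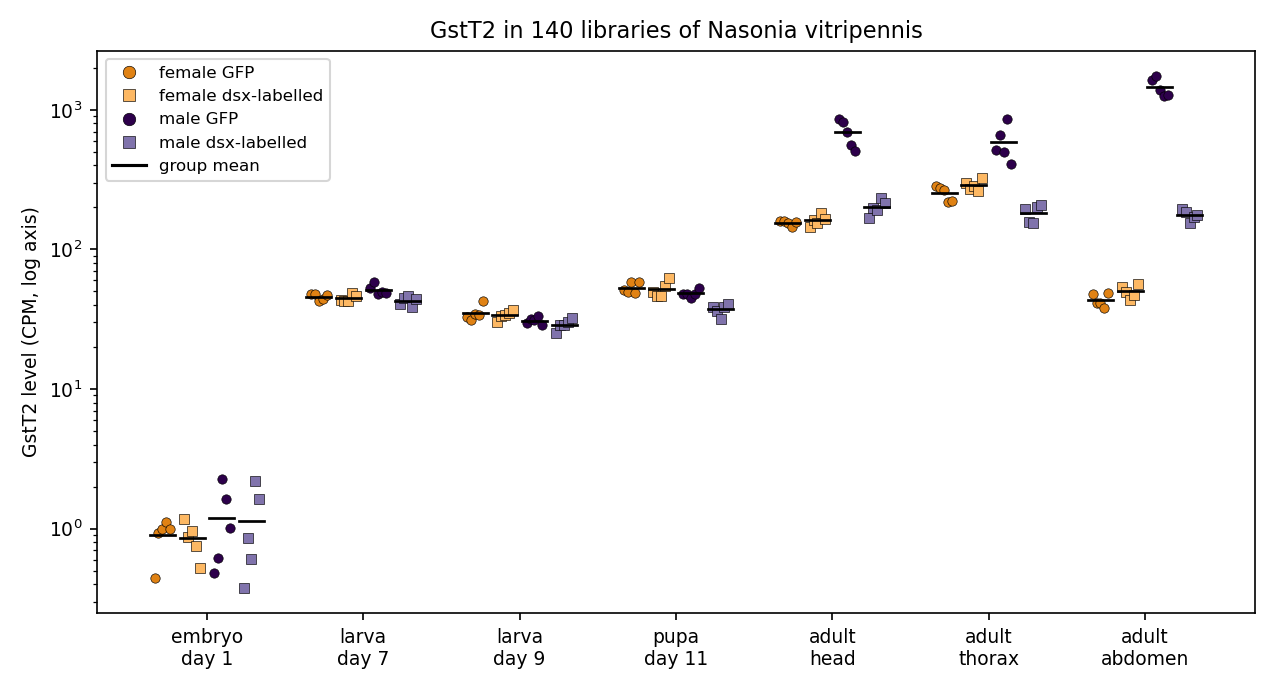
GstT2 level in each of the 140 libraries, in CPM on a log axis, by stage or body part; circles are GFP groups, squares are dsx-labelled groups, and black bars are group means of 5 libraries. GFP males stand above the other groups in heads, thoraces and abdomens, with means of 689, 588 and 1465 CPM, while the larval and pupal groups lie between 25.1 and 62.0 CPM.

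In abdomens, the 5 libraries of GFP males read 1644, 1739.9, 1394, 1266 and 1279.5 CPM of GstT2. The 5 libraries of GFP females read 48.0, 41.6, 41.3, 38.0 and 49.0 CPM. The groups did not come near each other. The GFP male mean was 33.6-fold the GFP female mean of 43.6 ± 4.69 CPM on this common scale. With the scaling computed within abdomens alone, as in the fitted model, the log2 fold change was 4.75 (SE 0.12), which is 26.8-fold. Scaled by total counts alone, the ratio of the means was 20.7-fold. Between GFP male and female abdomens 86.8% of 12356 tested genes were called. Among those genes, 1054 had a larger absolute log2 fold change than GstT2.

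In heads, GFP males read 864, 822, 692, 562 and 505 CPM. GFP females read 160.4, 160.1, 155, 146 and 158 CPM, a mean of 156 ± 5.97. Every male library was above every female library, and the log2 fold change was 2.13 (SE 0.12, 4.39-fold). In thoraces, GFP males read 516, 660, 501, 856 and 409 CPM, against 287, 274, 265, 219 and 223 CPM in GFP females. Thoraces had the smallest sex difference of the adult parts, at a log2 fold change of 1.19 (SE 0.15, 2.29-fold), and again the groups did not overlap. The percentage of all tested genes called between the sexes was 33.8% in heads and 37.1% in thoraces.

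The order of body parts differed between the sexes. In GFP males the abdomen was 2.13-fold above the head with no overlap, while head and thorax overlapped at a ratio of 1.17. In GFP females the thorax was highest, 1.63-fold above the head, and the head was 3.58-fold above the abdomen, with no overlap at either step. The thorax of GFP females, at 254 ± 30.5 CPM, was 5.82-fold above their abdomen, or 3.38-fold scaled by total counts and 3.75-fold with TMM factors within each stage. With these scalings, in that order, their thorax was 1.28 and 1.31-fold above the head, and the head 2.63 and 2.88-fold above the abdomen. The GFP male head was 1.47-fold above the thorax with either.

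The dsx-labelled adult males stood far below the GFP males in all 3 body parts. In abdomens they read 194, 184, 155, 169.8 and 177 CPM, a mean of 176 ± 14.8. This was 8.32-fold below the GFP males on the common scale, and the fitted log2 fold change was -2.996 (SE 0.11). In heads they read 167, 199, 191, 233 and 215 CPM, 3.43-fold below the GFP males (log2 fold change -1.75, SE 0.12). In thoraces they read 196, 157, 154, 201 and 207 CPM, 3.21-fold below (log2 fold change -1.66, SE 0.15). The dsx-labelled and GFP male libraries overlapped in none of the 3 parts. The test called 8.92% of all tested head genes in this comparison, 26.9% of thorax genes and 39.3% of abdomen genes. Larger absolute log2 fold changes were found for 214 of 12136 genes in heads, 396 of 11782 in thoraces and 249 of 12356 in abdomens.

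Set against GFP females, the dsx-labelled males reached a different place in each part. In heads their mean of 201 ± 25.0 CPM was 1.29-fold above the GFP females, without overlap, which is 8.46% of the sex difference between GFP groups. The lowest of these male head libraries read 167 CPM and the highest GFP female head 160.4 CPM, so the groups lay close. In abdomens it was 4.04-fold above the GFP females, also without overlap, which is 9.32% of the much larger sex difference there. Scaled by total counts alone the same ratio was 2.56-fold. In thoraces their mean of 183 ± 25.4 CPM lay below that of the GFP females, 1.38-fold lower and without overlap. Set against dsx-labelled females, the dsx-labelled males were 1.24-fold higher in heads, with overlapping libraries. They were 1.57-fold lower in thoraces and 3.51-fold higher in abdomens, both without overlap. The fitted log2 fold change of that abdomen comparison was 1.56 (SE 0.10), or 1.15 scaled by total counts. Between dsx-labelled males and females, 30.6% of all tested genes were called in heads, 26.2% in thoraces and 86.5% in abdomens. Larger absolute log2 fold changes than that of GstT2 were found for 4468 of 12136, 1920 of 11782 and 4913 of 12356 genes. For dsx-labelled males against GFP females the share of all genes was not computed. On the common scale the 3 parts of dsx-labelled males overlapped with each other, with means of 201, 183 and 176 CPM. The parts of GFP males spanned 588 to 1465 CPM on that scale. The spacing of the parts of dsx-labelled males turned with the scaling. Their head was 1.37-fold the thorax scaled by total counts, and 1.38-fold with TMM factors within each stage. With these scalings, in that order, their thorax was 0.934 and 0.842-fold the abdomen, where the common scale placed it higher. The percentages of the sex difference and the fold changes between dsx-labelled and GFP males share the GFP male libraries. These percentages are of differences in CPM and depend on that scale. As fitted log2 fold changes, the sex and male label differences were 4.75 and -2.996 in abdomens, and 2.13 and -1.75 in heads. On the log2 scale a larger part of the sex difference was thus left than the percentages show.

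Among the male heads, 3 libraries stood apart on the leading component of variation within groups, which held 37.8% of that variation. Replicates 1 and 2 of the GFP males (scores 1.80 and 1.73) and replicate 1 of the dsx-labelled males (2.54) lay on one side, and the other male heads had scores between -1.31 and -0.47. The GFP pair had the highest GstT2 of their group, 864 and 822 CPM, and the dsx-labelled library had the lowest of its group, 167 CPM. Without these 3 libraries the sex difference in GFP heads was 1.92 (SE 0.09) and the male label difference was -1.47 (SE 0.09), both as log2 fold changes. What sets these libraries apart was not tested.

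In females, GstT2 differed little between dsx-labelled and GFP groups. The dsx-labelled abdomens read 53.7, 49.8, 43.3, 47.2 and 56.8 CPM, a mean of 50.2 ± 5.30, and overlapped the GFP females. The log2 fold changes were 0.19 (SE 0.10) in abdomens, 0.18 (SE 0.15) in thoraces and 0.05 (SE 0.12) in heads. The dsx-labelled female thoraces had a mean of 288 ± 24.9 CPM and the heads of 162 ± 14.3 CPM, and both overlapped their GFP groups. The order of thorax, head and abdomen was that of GFP females, with steps of 1.78 and 3.23-fold, or 1.41 and 2.39-fold scaled by total counts. The label comparison called at most 0.0412% of genes in these parts in females (0.0412% in heads, 0.017% in thoraces and 0.00809% in abdomens). The difference between the male and the female response, as an interaction in the same fit, was -1.80 (SE 0.17) in heads, -1.84 (SE 0.21) in thoraces and -3.19 (SE 0.14) in abdomens. That interaction was called for 4.1% of all tested genes of heads, 12.7% of thoraces and 25.4% of abdomens, and for 0% of embryos, 0.314% of day 7 larvae, 0.542% of day 9 larvae and 0.218% of pupae.

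**Figure D2:**
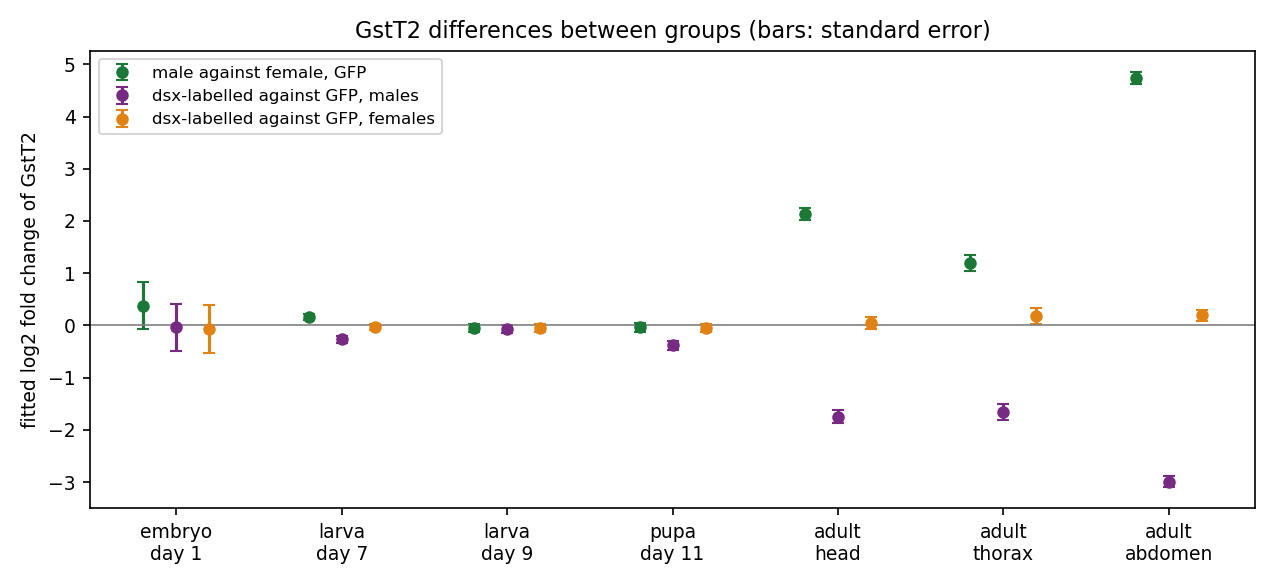
Fitted log2 fold change of GstT2 at each stage or body part for the 3 comparisons, with bars of 1 standard error from the fit of 20 libraries. The sex difference is 4.75 in abdomens and 2.13 in heads, the male dsx-labelled difference is -2.996 and -1.75, and the female dsx-labelled differences lie between -0.07 and 0.19.

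In larvae and pupae GstT2 was lower than in adult heads, adult thoraces and male abdomens, and much more even between groups. The 12 larval and pupal groups had means between 28.9 and 53.3 CPM. At day 7, GFP males averaged 51.6 ± 4.33 CPM and GFP females 46.0 ± 2.41, with overlapping libraries and a log2 fold change of 0.16 (SE 0.06). At day 9 the means were 30.9 ± 1.87 and 35.1 ± 4.38 CPM, overlapping. In pupae they were 48.4 ± 2.97 and 53.3 ± 4.90 CPM, overlapping. The fitted sex differences at day 9 and in pupae were -0.05 (SE 0.08) and -0.04 (SE 0.08).

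A small difference between the male groups was present at day 7 and in pupae. At day 7 the dsx-labelled males read 40.7, 44.9, 46.0, 38.7 and 43.8 CPM, and the GFP males read 52.8, 58.6, 47.7, 49.8 and 49.1 CPM. In pupae the dsx-labelled males read 38.7, 36.3, 31.7, 38.9 and 40.8 CPM, and the GFP males read 48.3, 47.8, 44.6, 48.3 and 52.9 CPM. The dsx-labelled libraries were below all GFP libraries at both stages, with log2 fold changes of -0.27 (SE 0.06) and -0.38 (SE 0.08). Larger absolute log2 fold changes were found for 2441 of 12096 genes (20.2%) at day 7 and 1202 of 12400 (9.69%) in pupae. At day 9 the male groups overlapped, with a log2 fold change of -0.07 (SE 0.08). In females the larval and pupal log2 fold changes were -0.03, -0.05 and -0.05, and the groups overlapped at each stage. The male label comparison called 4.1% of all tested genes for day 7, 3.41% for day 9 and 1.06% for pupae.

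Adult GFP males stood above GFP male pupae by 30.3-fold in the abdomen, 14.2-fold in the head and 12.2-fold in the thorax. In GFP females the thorax was 4.76-fold and the head 2.93-fold above pupae, and the abdomen overlapped them. The place of female abdomens beside pupae turned with the scaling: GFP female pupae had 1.22-fold the abdomen level on the common scale and 0.771-fold when scaled by total counts. Pupae are whole bodies and the adult samples are body parts, so these ratios also set different tissues against each other. Within each group of sex and dsRNA, day 9 larvae were lower than day 7 larvae without overlap on the common scale. The step was 1.67-fold in GFP males and 1.31-fold in GFP females. Scaled by total counts it was 1.60 and 1.13-fold, and with TMM factors within each stage 1.43 and 1.25-fold. Overlap of these larvae was not examined with the other scalings.

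Embryos held very little GstT2. Their libraries read 0.378 to 2.27 CPM, from 28 to 185 counts, where no library of another stage had under 2391 counts. GFP male embryos averaged 43.0-fold less than day 7 larvae, and GFP female embryos 51.5-fold less. The 4 embryo groups overlapped each other. Their sex difference in GFP controls had a log2 fold change of 0.38 with an SE of 0.45, so a difference of that size was not detectable in these libraries. In embryos the spread over replicates was 28.4 to 67.0% of the mean, against 3.83 to 29.7% in all other groups. Among male embryos GstT2 followed the first within-group component, which held 41.0% of the variation inside groups. The GFP male replicates 3 and 4, with scores of -1.23 and -1.08, read 2.27 and 1.63 CPM, and replicates 1 and 2, with scores of 1.03 and 0.85, read 0.479 and 0.612 CPM. Dsx-labelled male replicates 4 and 5, at -1.61 and -0.94, read 2.20 and 1.63 CPM, and replicate 1, at 1.35, read 0.378 CPM. The part of this component in the embryo values was not tested.

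Ranked by mean, the 28 groups form 27 pairs of neighbours, and in 23 of them the libraries overlapped. The means were closer than the larger SD in 19. The 4 steps without overlap lay below the GFP male abdomen (2.13-fold), below the GFP male thorax (2.04-fold), between the lowest adult head group and the highest pupal group (2.93-fold), and between the lowest larval group and the embryos (24.1-fold). The 3 top ranks belonged to GFP males. The next 7 were the remaining thoraces and heads and the dsx-labelled male abdomens. Female abdomens lay among larvae and pupae on this scale.

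GstT2 has close relatives at its own locus, which limits what its counts can resolve. In the RefSeq table GstT1, another theta-class gene, covers 97.2% of the annotated span of GstT2, and GstT3 begins 215 bases beyond it. A pseudogene, LOC100113913, covers 30.7% of the span and is not analysed here. The other annotated genes whose spans overlap GstT2 are LOC100680429, LOC107981889, LOC100678982, LOC100115126, LOC116416484, LOC100678874, LOC100114196 and LOC100117476. The sources used here do not say whether counting used strand, or how reads shared by overlapping genes were assigned. The values of all 3 theta genes are therefore uncertain to the extent that reads could be split between them.

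GstT1 and GstT3 were lower in dsx-labelled than in GFP males in each adult part, as GstT2 was. GstT1 read 121, 115, 108, 88.4 and 82.8 CPM in GFP male abdomens and 39.3, 38.8, 38.6, 39.7 and 41.5 CPM in dsx-labelled ones. The log2 fold change of GstT1 was -1.32 (SE 0.09, adjusted p 9.32e-10) in abdomens, -0.78 (adjusted p 6.74e-06) in heads and -0.72 (adjusted p 0.000239) in thoraces. GstT1 was also higher in GFP males than in GFP females in the 3 parts, by 1.77, 0.87 and 0.60 on the log2 scale.

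GstT3 read 15.1, 14.5, 12.3, 11.2 and 10.02 CPM in GFP male abdomens and 2.24, 2.80, 2.11, 3.18 and 2.34 CPM in dsx-labelled ones, with no overlap. Its log2 fold change was -2.25 (SE 0.12, adjusted p 2.05e-11) in abdomens, -1.49 (adjusted p 1.49e-05) in heads and -1.30 (adjusted p 0.000176) in thoraces. In contrast to GstT2, GstT3 had its abdominal sex difference the other way, with GFP females at a mean of 19.7 CPM and GFP males below them (log2 fold change -0.97, adjusted p 1.15e-07). In heads and thoraces GstT3 was higher in GFP males, by 1.68 and 0.63.

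In reads rather than per length, the gap between GFP and dsx-labelled males in GstT1 made up 3.00% of the GstT2 gap for heads, 4.27% for thoraces and 4.93% for abdomens. For GstT3 it was 0.815, 0.826 and 0.783%. Embryos separate GstT1 from GstT2: GstT1 had group means of 27.7 to 33.5 CPM there, while GstT2 had 0.855 to 1.20. Whether reads of GstT2 are counted under GstT1 or GstT3 was not tested.

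**Figure D3:**
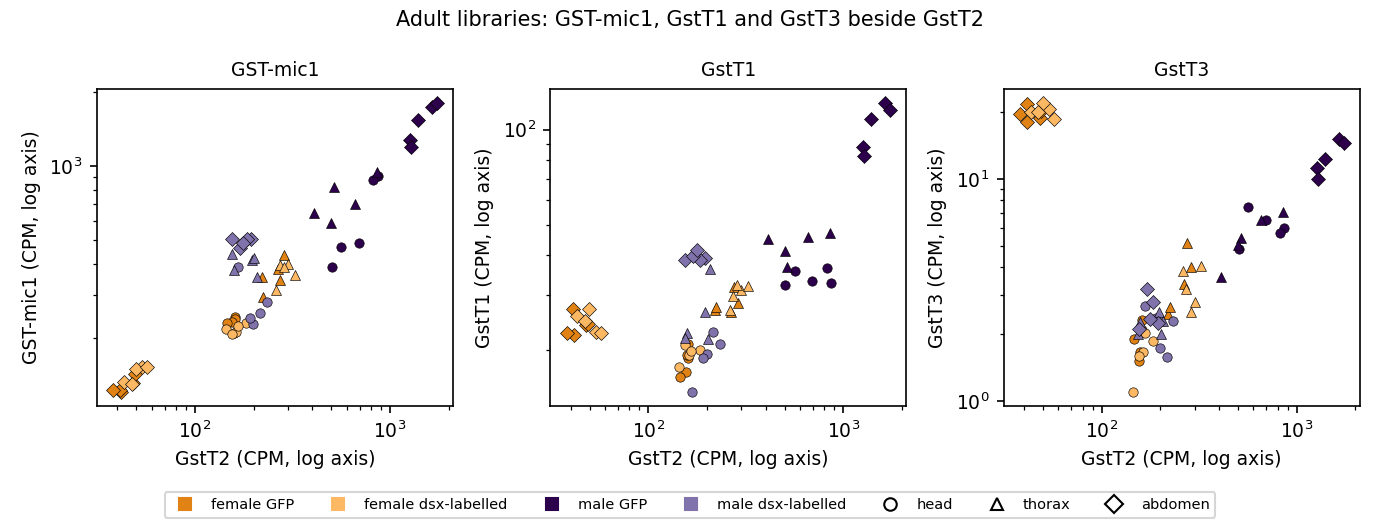
Level of GST-mic1, GstT1 and GstT3 against that of GstT2 in the 60 adult libraries, in CPM on log axes; colours give sex and dsRNA, and symbols give the body part. GFP males lie to the right in each panel, and female abdomens lie at the lower left for GST-mic1 (group mean of 128 CPM in GFP females) but at the top for GstT3 (19.7 CPM).

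GST-mic1, which is outside the theta class, was the Gst symbol whose levels followed GstT2 most closely, ahead of GstT1 and GstT3. It is named as a microsomal glutathione transferase, a membrane-bound family unrelated in sequence to the soluble classes, and lies on chromosome 1. GST-mic1 averaged 1507 CPM in the abdomens of GFP males, against 493 CPM for dsx-labelled males and 128 CPM for GFP females. The sex difference of GST-mic1 in GFP abdomens was 3.23 on the log2 scale (SE 0.10, adjusted p 1.28e-16), and dsx-labelled against GFP males gave -1.55 (SE 0.10, adjusted p 1.4e-10). In heads the same comparisons gave 1.43 (adjusted p 1.61e-05) and -1.14 (adjusted p 0.000686), and in thoraces 1.02 (adjusted p 2.4e-06) and -0.86 (adjusted p 3.76e-05). For GstT2 the abdomen values of these comparisons were 4.75 and -2.996, and both comparisons share the GFP male libraries. GST-mic1 had 2 of its 5 GFP male head libraries apart, replicates 1 and 2 at 913 and 876 CPM against 387 to 485 in the rest, and these are the head libraries that also had the highest GstT2. The highest dsx-labelled male head read 390 CPM of GST-mic1, so the male head groups overlapped. Its head differences without the 3 male head libraries set apart above were not examined. GST-mic1 was lower in GFP males among pupae (log2 fold change -0.48, adjusted p 0.0014), where GstT2 had -0.04.

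Across the 16 other Gst symbols, Gstcd had a count of 0 in all libraries, and 15 were tested at each stage except thoraces, where GstD5 also fell below the minimum count and 14 remained. Before adulthood, sex differences in GFP controls were called for 0 of 15 embryo symbols (background 0.0417% of all tested genes), 5 at day 7 (background 35.2%), 7 at day 9 (background 49.1%) and 9 among pupae (background 63.8%). In adults they were called for 6 of 15 in heads (background 33.8%), 10 of 14 in thoraces (background 37.1%) and 14 of 15 in abdomens (background 86.8%). In abdomens 10 were higher and 4 lower in males, with a median log2 fold change of 0.88 over the 15, against 0.01 over all genes. In heads 3 were higher and 3 lower. In thoraces 3 were higher and 7 lower, with a median of -0.39. The 3 that were higher in males in both heads and thoraces were GST-mic1, GstT1 and GstT3. In embryos, where 0 passed, 2 had an unadjusted p under 0.05 and DESeq2 called 0. Scaled by total counts alone, the split between higher and lower was 10 to 0 at day 7 in place of 5 to 0, 9 to 5 in abdomens in place of 10 to 4, 3 to 5 in heads in place of 3 to 3, 3 to 10 in thoraces in place of 3 to 7, and 1 to 7 in pupae in place of 2 to 7.

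The dsx label in males was called for 4 of 15 other Gst symbols in heads (1 higher, 3 lower; background 8.92%), 8 of 14 in thoraces (4 higher, 4 lower; background 26.9%) and 12 of 15 in abdomens (7 higher, 5 lower; background 39.3%). It was called for 1 in pupae, GstS8 (background 1.06%), and for 0 at the other stages (background 0% in embryos, 4.1% at day 7 and 3.41% at day 9), where unadjusted p was under 0.05 for 0 symbols in embryos, 2 at day 7 and 3 at day 9, and DESeq2 called 0, 0 and 2. The median log2 fold change over the 15 symbols in abdomens was 0.19, against 0.02 over all genes. GstT1, GstT3 and GST-mic1 were lower in dsx-labelled males in all 3 parts. Each sigma-class symbol that was called in these parts was higher. The GFP male libraries enter both the sex and the label comparison.

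Sigma-class enzymes are known in other insects for clearing lipid peroxidation products. GstS2 moved opposite to GstT2 in the heads. It read 15.4, 15.7, 13.7, 13.4 and 11.9 CPM in GFP males and 129, 107, 113, 109.5 and 110.1 CPM in dsx-labelled males, so the groups did not overlap. The log2 fold change was 3.05 (SE 0.08, adjusted p 4.04e-15). GstS2 averaged 19.4 CPM in the heads of GFP females, closer to the GFP males than to the dsx-labelled males. The annotated spans of GstS2 and GST-mic1 both overlap that of Usp7 in RefSeq, and GstO1, GstO2, GstS3, GstS6 and GstZ1 each overlap another gene, so their counts carry the same uncertainty on shared reads. In thoraces and abdomens GstS2 was higher in dsx-labelled males by 1.05 (adjusted p 0.00143) and 0.60 (adjusted p 0.00079). Its abdomen means were 272 CPM in GFP males, 72.4 CPM in GFP females and 395 CPM in dsx-labelled males. The dsx-labelled males thus stood further from GFP females than GFP males did. GstS8 in abdomens stood at 21.0 CPM in GFP males against 328 CPM in females (log2 fold change -4.29), and higher in dsx-labelled than in GFP males by 1.20. GstS3 was lower in GFP male abdomens (log2 fold change -3.30) and higher in dsx-labelled males by 0.41. GstS5 was higher in dsx-labelled males by 0.69 in thoraces and 0.83 in abdomens, while GstS6 in abdomens was called between the sexes (0.84) and not for the label (0.19).

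The delta class is expanded in insects and has long been studied in insecticide resistance. GstD1 was higher in GFP males in abdomens (log2 fold change 1.46) and lower in dsx-labelled males there (log2 fold change -0.51). GstD2, a transcribed pseudogene in RefSeq, and GstD3 were higher in dsx-labelled male abdomens by 0.64 and 0.65, at male group means of 1.86 to 3.34 CPM. GstD5 had a large sex difference in GFP abdomens (log2 fold change 4.23) at very low levels, 1.17 CPM in males and 0.05 in females, while in heads it stood at 43.4 to 47.6 CPM in all 4 groups. For the male label in abdomens GstD5 had -1.07, which was not called. GstO1 of the omega class, known for dehydroascorbate reductase activity, was lower in dsx-labelled male abdomens (log2 fold change -0.73), and the sex difference there was also negative (-0.69). GstZ1, whose class includes an enzyme of tyrosine breakdown, was higher in GFP male abdomens by 1.29 and higher again in dsx-labelled ones by 0.27. GstO2 was higher in dsx-labelled male thoraces by 0.43.

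Among the larval and pupal sex differences called for the other Gst symbols, which were below the share of all genes called at each of these stages, several are given here. At day 7 the largest was that of GstS2, higher in GFP males by 1.08 (adjusted p 5.76e-05). At day 9 GstD5 was higher in GFP males by 1.82 (adjusted p 2.21e-07), and GstD1 and GstS6 were lower (log2 fold change -0.68 for each). In pupae GstD3, GstD5 and GstZ1 were lower in GFP males, at -1.97, -1.16 and -1.14, and GstS3 was higher by 0.43. The 1 label difference called among these stages in males was that of GstS8 in pupae, higher in the dsx-labelled group by 0.34 (adjusted p 0.0103).

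In females the dsx label was called for 0 of 104 tests over the other Gst symbols at the 7 stages, by edgeR. Of these tests 7 had an unadjusted p under 0.05, and DESeq2 called 2, both GstD5, in embryos and at day 9. Over all genes the female comparison called 0% in embryos and pupae, 0.0496% at day 7 and 0.0809% at day 9.

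**Figure D4:**
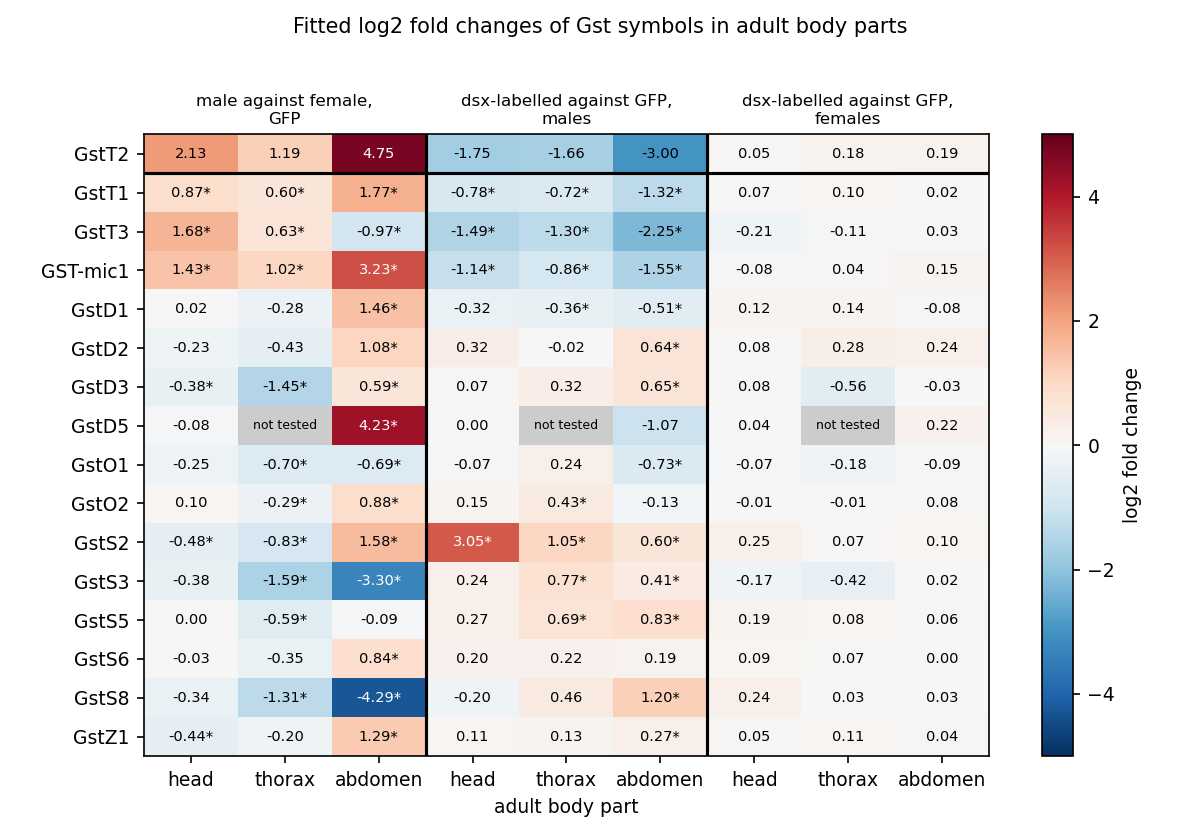
Fitted log2 fold changes of GstT2 and 15 other Gst symbols in adult heads, thoraces and abdomens, with red for higher and blue for lower; an asterisk marks an adjusted p below 0.05, and GstT2 carries no test. GstT2, GstT1, GstT3 and GST-mic1 are the symbols with negative values in all 3 parts for dsx-labelled against GFP males that pass the test or, for GstT2, are given without one, and GstS2 has 3.05 in heads.

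The genes with the most similar profile to GstT2 were ranked by Pearson's r of log2(mean CPM + 0.5) over the 28 group means, among 12253 genes with a mean of at least 1 CPM in a group. The points share libraries within stages and a common scaling, so r is a description. The closest was LOC100115937, with r = 0.990, followed by LOC100120308 (0.985), LOC100119843 (0.974), GST-mic1 (0.971) and LOC100114375 (0.968). The files and the RefSeq table give these LOC symbols no gene name, and 93 genes had r of 0.9 or more. Without embryos r was 0.977 for LOC100115937, 0.955 for LOC100120308, 0.926 for LOC100119843, 0.938 for GST-mic1 and 0.913 for LOC100114375. LOC100115937 was still first, CYP4AB14, a cytochrome P450 by its symbol, was next at 0.974, and 2 of the 5 remained among the top 5. By Spearman's rho 3 remained, and with a pseudocount of 5 or over the 140 single libraries 4 remained. Over the 28 groups r was 0.247 for GstT1 and 0.663 for GstT3; without embryos it was 0.869 and 0.179.

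LOC100115937 followed GstT2 in adults with smaller differences. In abdomens its sex difference was a log2 fold change of 2.83 (SE 0.12), and the male label difference was -1.59 (SE 0.11). In heads the values were 1.53 (SE 0.22) and -0.67 (SE 0.21). In thoraces LOC100115937 had 0.31 (SE 0.15) and -0.51 (SE 0.15), where GstT2 had 1.19 and -1.66. LOC100120308 and LOC100119843 had 2.94 and 1.27 for sex and -0.77 and -1.20 for the male label in abdomens. LOC100114375, the fifth, had 0.95 and -0.28. In thoraces the male label difference was 0.16 (SE 0.15) for LOC100120308, -0.04 (SE 0.09) for LOC100119843 and 0.15 (SE 0.09) for LOC100114375. Their sex differences there were 0.35, 0.24 and -0.31. For heads they had 1.00, 0.77 and 0.05 for sex and -0.35, -0.53 and -0.17 for the male label. As these genes were chosen for their likeness to GstT2, no test is given for them apart from GST-mic1, which is also a Gst symbol.

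**Figure D5:**
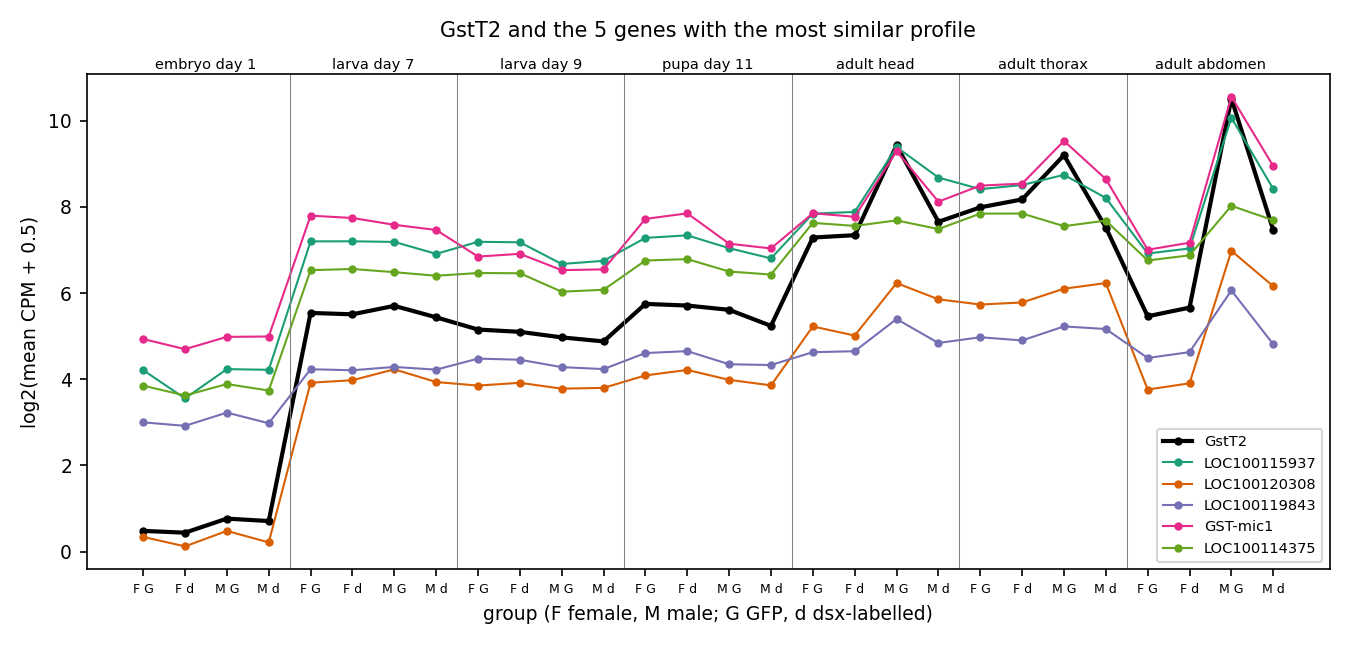
Profiles of GstT2 and the 5 genes most similar to it over the 28 groups, as log2(mean CPM + 0.5); levels are not scaled by gene length, so only the shapes compare. The 6 lines are lowest in embryos and highest in GFP male abdomens, where GstT2 has a mean of 1465 CPM, and GstT2 has the steepest drop from there to the dsx-labelled males.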

How the data were processed

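RNA-seq libraries were prepared from the groups described above. The authors deposited 1 table of counts, whole numbers of reads per gene and library that are not normalized; 0 columns were without a sample. The submitters' processing notes name HISAT2 2.0.5 and HTSeq 0.6.1, with no role. The sources used here do not give the build, annotation or use of strand. GstT2 and the gene lists were chosen with earlier results of these data known. Genes named are GstT2, the other Gst symbols, Dsx and Tra as checks, and the 5 genes most like GstT2; CYP4AB14 and LOC100113913 were named after their values or positions were seen. A list of glutathione genes by RefSeq description and markers other than Lop1 and Tra, which had matching symbols as did Hb, Gt and nanos, are not used here. No gene sequences were used.

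Each stage was fitted on its own over its 20 libraries with edgeR 4.0.16 (quasi-likelihood test, R 4.3.3), TMM factors, filterByExpr at a minimum count of 10, a mean per group and a prior count of 0.125. P-values were adjusted by Benjamini-Hochberg over all tested genes of a comparison, and a gene is called below 0.05. All adjusted p-values come from this test. Unless "fitted" is said, folds are ratios of mean CPM with TMM factors over all 140 libraries, and errors are SD over 5 libraries. The test was checked on simulated data. Alternatives were RLE and total-count scaling, DESeq2 1.42.0, no filter, a replicate block, the compared groups alone, the leading within-group component as a covariate, each library left out and, added after seeing the data, male heads without 3 libraries. Depth was 59.2 M to 113 M counts per library.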

Additional observations from a re-analysis of the deposited data

Results flagged for a closer look

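In 3 of 112 groups examined for GstT2 and the theta and microsomal references, 1 library lay far from the other 4 of its group by Dixon's criterion, which chance meets in about 1 group in 20. The GstT2 level of GFP female embryo replicate 1 was 0.446 CPM, with the nearest at 0.923. GstT3 stood at 2.04 CPM in GFP female embryo replicate 3, with the nearest at 0.505, and at 2.89 CPM in dsx-labelled male day 9 replicate 5, with the nearest at 2.35.

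The response to the dsx label differed between the sexes for 4 of 15 other Gst symbols in heads, 7 of 14 in thoraces and 11 of 15 in abdomens, by the interaction of sex and label in edgeR with adjusted p below 0.05; over all tested genes the same interaction was called for 4.1, 12.7 and 25.4%. It is given as the male minus the female log2 fold change. In heads it was -1.05 for GST-mic1, 2.80 for GstS2, -0.86 for GstT1 and -1.28 for GstT3. In thoraces it was -0.90 for GST-mic1, 0.44 for GstO2, 0.98 for GstS2, 1.18 for GstS3, 0.61 for GstS5, -0.82 for GstT1 and -1.19 for GstT3. In abdomens it was -1.70 for GST-mic1, -0.43 for GstD1, 0.67 for GstD3, -0.64 for GstO1, 0.50 for GstS2, 0.39 for GstS3, 0.78 for GstS5, 1.16 for GstS8, -1.34 for GstT1, -2.28 for GstT3 and 0.22 for GstZ1. The call was lost in 15 of 20 fits that each left out 1 library for GST-mic1 in heads (adjusted p up to 0.0708) and for GstD3 in abdomens (up to 0.0946). In abdomens it was lost in 13 for GstS2 (up to 0.172), 12 for GstS3 (up to 0.156) and 12 for GstZ1 (up to 0.254). In thoraces it was lost in 9 for GstS2 (up to 0.0733) and 6 for GstS3 (up to 0.0609).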

How the results depend on the processing

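Of the 35 GstT2 log2 fold changes, 29 moved by less than the spread between replicates under each alternative. Scaled by total counts, which moves the median of all genes by 0.19 at day 7 and -0.37 in abdomens for sex, GstT2 had 0.35 at day 7 and 4.37 in abdomens between GFP sexes, and 0.051 and 1.15 between dsx-labelled sexes; with TMM the day 7 value of dsx-labelled wasps was -0.07. Without the 3 male heads it had -1.47 for the male label and -1.52 for the interaction.

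Levels moved by more than 1 SD with total counts and with TMM factors within a stage, in that order, as follows (CPM): GFP females 46.9 and 46.1 in pupae, 41.0 and 39.8 at day 9, 60.7 and 54.1 in abdomens, 205 and 203 in thoraces; dsx-labelled females 40.5 and 38.4 at day 9, 70.1 and 61.9 in abdomens, 237 and 229.7 in thoraces; GFP males 43.4 and 45.2 in pupae, 36.8 and 38.9 at day 9; dsx-labelled males 48.5 and 46.1 at day 7, 36.1 and 36.7 at day 9, 145 and 147 in thoraces. Total counts alone moved GFP males at day 7 to 59.1 and dsx-labelled male abdomens to 155. TMM within a stage alone moved GFP females at day 7 to 49.6, and dsx-labelled females to 48.8 at day 7 and 44.8 in pupae.

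Leaving out each library moved no GstT2 value beyond its spread. The other Gst calls summed over stages were 50 to 54 for sex (51 with all libraries), 23 to 27 for the male label (25) and 0 for the female label, where DESeq2 and the covariate gave 2 each. For the male label in thoraces, GstD1 lost its call in 6 of 20 such fits (edgeR adjusted p up to 0.102) and GstS3 in 4 (up to 0.0828). Over 416 values of single other Gst symbols, 10868 of 11127 alternatives kept direction and side of the threshold, 145 lost and 114 gained the call, and 0 reversed.

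Pairing of same-numbered replicates was not shown: in 0 of 21 comparisons did every pair correlate over 0.1 (range -0.67 to 0.64). This rule asks for every pair, so it cannot exclude that some libraries were paired. For the male label, 4 pairs were over 0.1 in pupae and in heads, and 3 in embryos. There were 2 at day 7 and in thoraces, 1 at day 9 and 0 in abdomens. Pairing between body parts was not tested. With the replicate block the counts were 53, 25 and 0, and the largest shift of a GstT2 log2 fold change was 0.23, in embryos. Embryo libraries had 28 to 185 counts of GstT2, and their spread between replicates limits differences there.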
